A study of Homo sapiens with 18 samples.

Results

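The replacement histone variant genes of HEK293T, a long-established cell line made from human embryonic kidney, were followed in cells lacking UBR7 and in their parental cells. The genes were H3F3A, H3F3B, H2AFZ, H2AFV, H2AFX, H2AFJ, H2AFY, H2AFY2 and H1FX, taken by symbol from the deposited RNA table. They are 9 of a list of 10 such genes found among the table's 14177 genes, and all 9 passed the filter on low values, as did 13697 genes in total. RNA-seq covered 3 libraries of CRISPR-Cas9 knockout cells, labelled UBR7KO, and 3 of parental cells, with RNA from cultures grown alike in serum-containing medium. The knockout libraries came from line KO1 (KO1-1 and KO1-2) and line KO2 (KO2-1). Date codes in the labels tied KO1-1 to parental 1 and KO1-2 to parental 2. KO2-1 and parental 3 carried no date and were treated as 1 further, undated pair. ATAC-seq, which maps chromatin open to a transposase, covered 2 UBR7KO and 2 parental libraries. The descriptions of both UBR7KO ATAC libraries carry the code of KO2-1, and their line is not otherwise stated. ChIP-seq for GFP covered 1 immunoprecipitated library from cells with GFP-tagged UBR7. Whether a line is 1 clone, and whether replicates are separate cultures, is not stated, so p-values measure the spread between these libraries, which may be technical.

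Nucleosomes wrap DNA around histones H2A, H2B, H3 and H4, and linker histone H1 binds where the DNA enters and leaves. Most histone protein is made in S phase from clustered genes whose messages lack a poly(A) tail, whereas the replacement variants are mostly made from single genes with polyadenylated messages and can enter chromatin without replication. H2AFX makes messages of both kinds. H3.3 marks active genes and is also placed in heterochromatin, H2A.Z flanks promoters, H2A.X is phosphorylated around DNA breaks, and macroH2A carries a large non-histone domain and is abundant on the inactive X chromosome. H3F3A and H3F3B encode the same H3.3 protein. UBR7 is a UBR box protein that the series title names as a chaperone of histone H3.

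The sequences before the starts of these genes are shown because the sister genes differ in them, and because open chromatin and GFP-UBR7 peaks are described near the starts of most of them. Peaks are measured from the start in the RNA table, which can differ from the RefSeq start before which a sequence is shown. In the authors' list of gene starts, the RefSeq start lies 6114 bases downstream of the table's start for H3F3B and 855 for H3F3A. It lies 676 bases downstream for 1 start of H2AFY, and some other genes have smaller offsets. RefSeq windows of GRCh38.p14, from 250 bases before to 50 after a start, were matched for all 9 genes, 13 windows in all. Capitals mark the CCAAT box (CCAAT, or ATTGG on the other strand) and the TATA box (TATAAA, or TTTATA), which do not overlap here. H2AFZ (chr4:99950226-99950525, minus strand), H2AFV (chr7:44848038-44848337, minus strand), H3F3B (chr17:75779730-75780029, minus strand), H3F3A (the most downstream of 4 windows, chr1:226062466-226062765, plus strand), H2AFX (chr11:119095416-119095715, minus strand) and H1FX (chr3:129316237-129316536, minus strand) read as follows, 5′ to 3′ on the strand of the gene.
H2AFZ: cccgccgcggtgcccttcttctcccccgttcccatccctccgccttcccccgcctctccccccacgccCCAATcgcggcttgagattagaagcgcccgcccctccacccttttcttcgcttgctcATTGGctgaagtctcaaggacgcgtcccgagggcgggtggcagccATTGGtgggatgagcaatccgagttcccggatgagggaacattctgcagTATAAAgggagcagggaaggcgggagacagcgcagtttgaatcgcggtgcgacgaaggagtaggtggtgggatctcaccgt
H2AFV: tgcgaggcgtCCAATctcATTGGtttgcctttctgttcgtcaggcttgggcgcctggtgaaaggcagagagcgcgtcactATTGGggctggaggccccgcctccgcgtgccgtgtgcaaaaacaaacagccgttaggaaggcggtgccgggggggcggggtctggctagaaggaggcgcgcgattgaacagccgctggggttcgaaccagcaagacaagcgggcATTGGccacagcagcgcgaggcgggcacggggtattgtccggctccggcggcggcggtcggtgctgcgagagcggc
H3F3B: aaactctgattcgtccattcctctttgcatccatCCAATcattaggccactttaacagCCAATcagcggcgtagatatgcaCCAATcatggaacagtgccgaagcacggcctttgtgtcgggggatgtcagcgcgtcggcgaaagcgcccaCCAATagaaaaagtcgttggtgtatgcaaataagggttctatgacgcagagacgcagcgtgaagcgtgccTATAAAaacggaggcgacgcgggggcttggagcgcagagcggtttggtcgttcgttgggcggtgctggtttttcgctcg
H3F3A: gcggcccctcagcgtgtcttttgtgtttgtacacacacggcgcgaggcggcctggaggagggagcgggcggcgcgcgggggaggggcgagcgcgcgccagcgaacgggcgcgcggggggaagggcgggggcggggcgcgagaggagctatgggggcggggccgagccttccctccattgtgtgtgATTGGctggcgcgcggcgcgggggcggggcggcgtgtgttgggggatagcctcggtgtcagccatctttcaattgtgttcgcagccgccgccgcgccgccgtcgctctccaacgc
H2AFX: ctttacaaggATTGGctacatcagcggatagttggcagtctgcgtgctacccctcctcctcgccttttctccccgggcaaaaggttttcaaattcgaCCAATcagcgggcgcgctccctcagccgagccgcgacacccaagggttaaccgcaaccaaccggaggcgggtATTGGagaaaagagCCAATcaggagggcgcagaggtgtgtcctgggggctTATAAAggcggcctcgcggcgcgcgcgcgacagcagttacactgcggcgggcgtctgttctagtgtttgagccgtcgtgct
H1FX: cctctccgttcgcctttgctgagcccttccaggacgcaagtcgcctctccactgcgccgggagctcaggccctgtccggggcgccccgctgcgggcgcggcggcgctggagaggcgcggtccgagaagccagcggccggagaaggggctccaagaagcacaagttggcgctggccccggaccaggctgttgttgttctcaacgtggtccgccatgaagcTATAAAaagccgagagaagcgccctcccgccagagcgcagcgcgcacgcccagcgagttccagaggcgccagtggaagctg

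The TATA box stood in the windows of H2AFZ, H3F3B, H2AFX and H1FX and in none of those of the other genes matched, that is in 4 of the 13 windows, against 11.5% of the 35116 windows in the table. Within the H2A.Z pair, the H2AFZ window held 1 TATA box and 3 CCAAT boxes, and the H2AFV window held 0 TATA boxes and 4 CCAAT boxes. Within the H3.3 pair, H3F3B held 4 CCAAT boxes and 1 TATA box, and no window of H3F3A held more than 1 CCAAT box. CCAAT was found in 9 of the 13 windows and in 7 of the 9 genes, against 34.6% of all windows. At least 2 copies stood in 6 of the 13 windows, against 10.8% of all. The windows of H1FX and H2AFY2 held none. The GC box (GGGCGG or CCGCCC) was in 8 of the 13 windows and in 5 of the 9 genes, against 45.0% of all windows. Every window of H3F3A held it, and some of these windows overlap. TTTGAA or TTCAAA was in 2 of the 13 windows, against 15.2% of all. The letters TTTGGCGC, or GCGCCAAA, were in none of the 13 windows and in 0.652% of all.

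The 6 RNA libraries held 22153291 to 29811908 reads. UBR7 itself, read to check the labels, had 27.0, 26.3 and 64.5 CPM (reads of a gene scaled to a fixed library total) in KO1-1, KO1-2 and KO2-1, against 55.0, 62.2 and 62.2 CPM in parental 1, 2 and 3. Its RNA was thus lower in KO1 and at the parental level in the library labelled KO2, so directions drawn from KO2-1 rest on that label. Of the HEK293T markers, NEFL, NEFM, VIM, PAX2 and LIN28B were all in the table, PAX2 at 0.721 to 1.92 CPM, and their summed level was 797 to 1144 CPM in UBR7KO and 718 to 1135 CPM in parental libraries. None of the 3 keratinocyte markers had a row, and 3 of the 4 fibroblast markers did, summing to 7.35 to 15.0 CPM in UBR7KO and 14.2 to 21.3 CPM in parental libraries. RNA was read in bulk, so fewer cells of a kind and less RNA per cell cannot be told apart.

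Across all 6 libraries, no replacement variant passed the test between UBR7KO and parental cells. Of the 9 genes 0 were called by limma at an adjusted p under 0.05, where 0.0% of the 13697 genes were called, and the adjusted p was 1 for each of the 9. At an unadjusted p under 0.05, 23 genes were higher and 47 lower in UBR7KO, and 0 of the variants were among them. UBR7 itself was not called in this fit, at a log2 difference of -0.72 (SE 0.33). It was called in the dated pairs with the pair as a block, at -1.10 (SE 0.13, limma adjusted p = 1.56e-05). The ranges of the UBR7KO and parental libraries overlapped for all 9, and 2.48% of tested genes had groups that did not overlap. The point estimate was positive for 8 of the 9, with a median of 0.19 on the log2(CPM + 1) scale, against 53.3% of tested genes and a median of 0.01 over them. By pair, the median of the 9 was 0.24, 0.23 and 0.0034 in the KO1-1, KO1-2 and KO2-1 pairs. DESeq2 on reads recovered from the CPM values called 7 genes and 0 of the variants. The pseudocount of 1 shrinks the changes of genes with few CPM, such as H2AFJ, most.

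**Figure D1:**
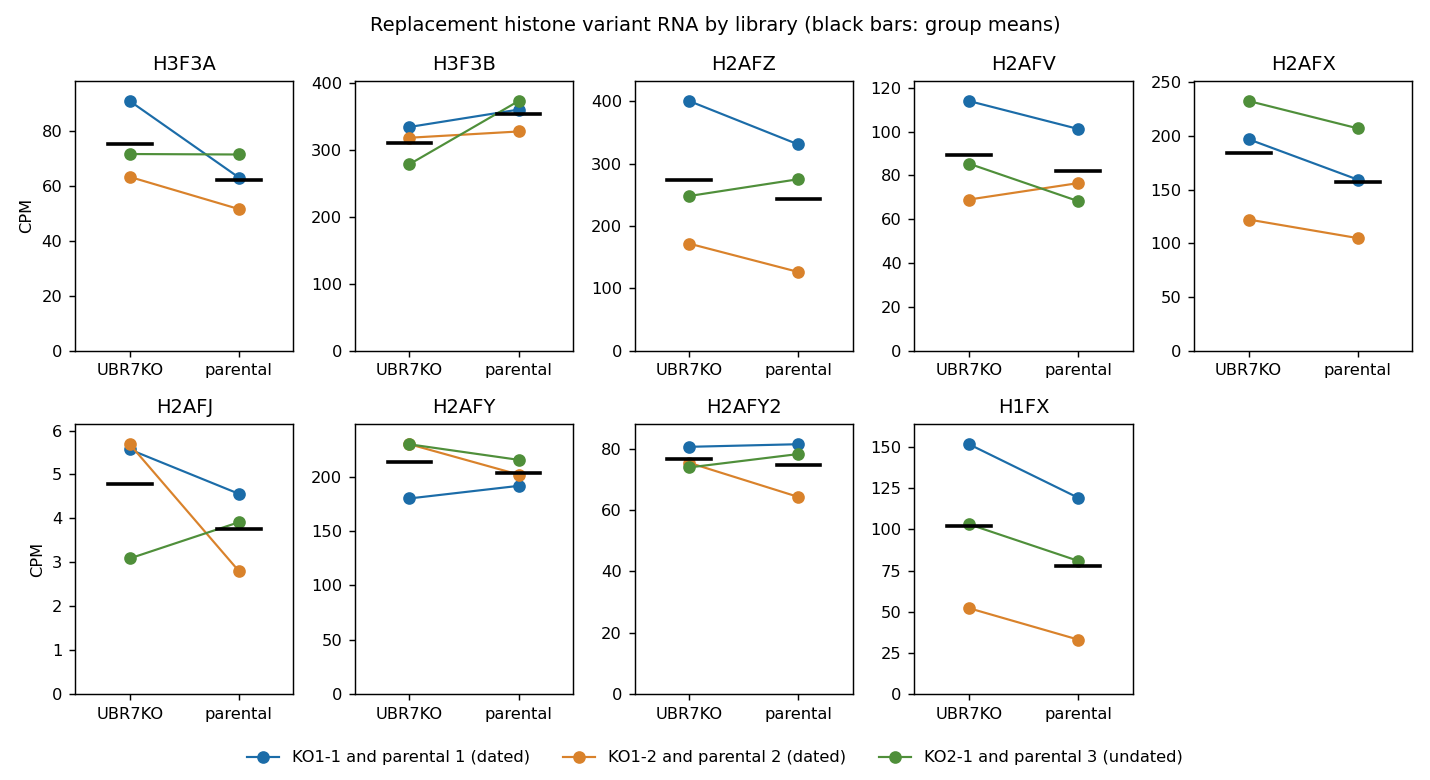
CPM (reads scaled to a fixed library total, linear axis from 0) of each gene in the 3 UBR7KO libraries, left, and the 3 parental libraries, right, with the libraries of a pair joined and group means as black bars. The points of both groups overlap in every panel, and H1FX, H2AFX and H3F3A are the panels in which each UBR7KO point lies above its parental partner.

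In the dated pairs alone, the fit without the pair called 0 of the 9 variants and 0.0% of the 13697 genes, with 218 genes at an unadjusted p under 0.05 and 0 variants among them, and DESeq2 called 24 genes and 0 variants. With the pair as a block, the fit called 1 variant, H1FX, as higher in KO1, where 2.23% of all tested genes were called higher. None was called lower, where 1.36% of genes were. The blocked fit has 1 residual degree of freedom per gene and leans on the spread shared over all genes. Over all 6 libraries with the block, 0 of the 9 passed.

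Positions of the genes are those of the RNA table, in GRCh37-type coordinates counted from 1, and all 9 genes are annotated there as protein coding. The mean log2 differences of the H3.3 genes had opposite signs, and neither gene passed the test. The larger changes of H3F3A were in the dated pairs, and the largest of H3F3B was in the undated pair. H3F3A (ENSG00000163041, chromosome 1, 226249552 to 226259702, plus strand) had 91.0, 63.3 and 71.6 CPM in KO1-1, KO1-2 and KO2-1, against 63.1, 51.6 and 71.5 CPM in parental 1, 2 and 3. It was above its partner in both dated pairs and level with it in the undated pair. H3F3A had a UBR7KO mean of 75.3 ± 14.2 CPM and a parental mean of 62.1 ± 9.98 CPM (SD, n = 3 per group), a log2 difference of 0.27 (SE 0.22, limma adjusted p = 1). In the dated pairs the difference was 0.41 (SE 0.12 with the block, limma adjusted p = 0.0687), which missed the threshold. H3F3B (ENSG00000132475, chromosome 17, 73772515 to 73781974, minus strand) had 334, 318 and 278 CPM in KO1-1, KO1-2 and KO2-1, against 360, 327 and 373 CPM in parental 1, 2 and 3. All 3 knockout libraries were under their partners, by 0.11, 0.04 and 0.42 on the log2 scale, and the lowest was KO2-1. H3F3B had a UBR7KO mean of 310.1 ± 28.6 CPM and a parental mean of 353 ± 23.5 CPM (SD, n = 3 per group), a log2 difference of -0.19 (SE 0.20, limma adjusted p = 1).

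Since both genes encode H3.3, their ratio within a library was compared, which does not depend on library scaling. The log2 ratio of H3F3A to H3F3B was -1.87, -2.31 and -1.94 in KO1-1, KO1-2 and KO2-1, against -2.49, -2.64 and -2.37 in parental 1, 2 and 3. Every knockout ratio lay above every parental one. The mean ratio was 0.46 higher in UBR7KO, with an exact two-sided permutation p of 0.1, the smallest that 3 against 3 libraries can give, and 0.4 adjusted over 4 sister ratios, 3 of which are given here. Within pairs the ratio was higher by 0.63, 0.33 and 0.42 in KO1-1, KO1-2 and KO2-1, with an exact sign-flip p of 0.25, the smallest that 3 pairs allow. The 67 tested genes with a start within 5 Mb of H3F3A on chromosome 1 had median log2 changes of 0.15, 0.30 and -0.01 in the KO1-1, KO1-2 and KO2-1 pairs, and H3F3A itself changed by 0.52, 0.29 and 0.00. The 103 around H3F3B on chromosome 17 had medians of 0.10, 0.12 and -0.32. The differences between these local medians were 0.06, 0.19 and 0.31 in the KO1-1, KO1-2 and KO2-1 pairs. Their part in the ratio's changes of 0.63, 0.33 and 0.42 was not tested.

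**Figure D2:**
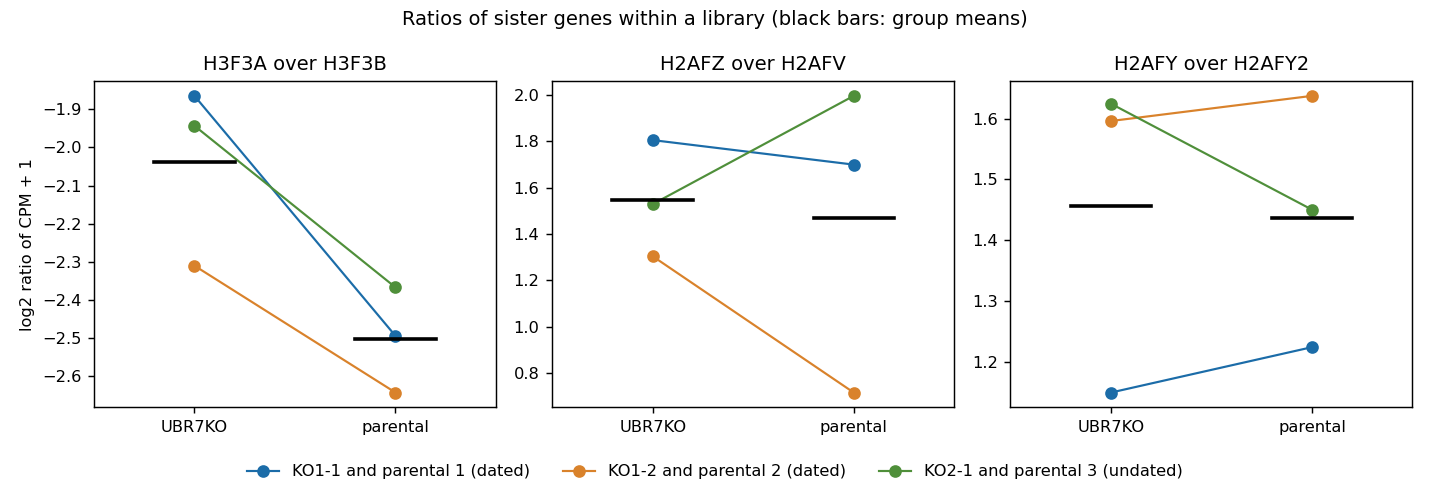
Log2 ratio of CPM + 1 between sister genes within each library, UBR7KO left and parental right, with pairs joined and group means as black bars; each panel has its own axis. Only in the H3F3A over H3F3B panel do the UBR7KO points, -2.31 to -1.87, all lie above the parental ones, -2.64 to -2.37.

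H2AFZ and H2AFV encode H2A.Z.1 and H2A.Z.2, near-identical H2A.Z proteins. H2AFZ (ENSG00000164032, chromosome 4, 100869243 to 100871545, minus strand) had 401, 172 and 248 CPM in KO1-1, KO1-2 and KO2-1, against 331, 126 and 275 CPM in parental 1, 2 and 3. KO1 was above its partners by 0.28 and 0.44 (log2), and KO2-1 was under parental 3 by 0.15. The mean log2 difference was 0.19 (SE 0.41, limma adjusted p = 1), and in the dated pairs 0.36 (SE 0.12 with the block, limma adjusted p = 0.107). H2AFV (ENSG00000105968, chromosome 7, 44866390 to 44887682, minus strand) had 114, 69.0 and 85.4 CPM in KO1-1, KO1-2 and KO2-1, against 101, 76.5 and 68.3 CPM in parental 1, 2 and 3. It was higher than its partner in KO1-1 and KO2-1 and lower in KO1-2, giving a mean log2 difference of 0.11 (SE 0.25, limma adjusted p = 1). The log2 ratio of H2AFZ to H2AFV was 1.80, 1.30 and 1.53 in KO1-1, KO1-2 and KO2-1, against 1.70, 0.72 and 2.00 in parental 1, 2 and 3. These ranges overlapped, and the mean differed by 0.08 (exact two-sided permutation p = 0.9, adjusted p = 1).

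H2AFX encodes H2A.X, the H2A form phosphorylated at DNA breaks. H2AFX (ENSG00000188486, chromosome 11, 118964564 to 118966177, minus strand) had 197, 122 and 232 CPM in KO1-1, KO1-2 and KO2-1, against 159, 105 and 207 CPM in parental 1, 2 and 3. Each knockout library was above its partner, by 0.30, 0.22 and 0.17 on the log2 scale. The groups still overlapped widely, since the level moved more between pairs than within them. The mean log2 difference was 0.23 (SE 0.32, limma adjusted p = 1), and in the dated pairs 0.26 (SE 0.12 with the block, limma adjusted p = 0.265). Of tested genes, 15.5% were higher in UBR7KO in all 3 pairs and 11.5% were lower in all 3. Among the variants H3F3A, H2AFX and H1FX were higher in all 3 and H3F3B was lower in all 3, with H3F3A level in the KO2-1 pair at 0.00.

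H2AFJ (ENSG00000246705, chromosome 12, 14927270 to 14930936, plus strand), which encodes the H2A variant H2A.J, had the fewest reads, 62 to 147 per library. It had 5.57, 5.69 and 3.09 CPM in KO1-1, KO1-2 and KO2-1, against 4.56, 2.80 and 3.91 CPM in parental 1, 2 and 3. KO1-2 was above parental 2 by 0.82 (log2), where 145 and 62 reads gave exact 95% Poisson intervals, which cover counting error only, of 4.80 to 6.69 CPM in KO1-2 and 2.15 to 3.59 CPM in parental 2. KO2-1 was under parental 3 by 0.27. The mean log2 difference was 0.26 (SE 0.32, limma adjusted p = 1), and in the dated pairs 0.53 (SE 0.21 with the block, limma adjusted p = 0.191).

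The macroH2A genes varied least across libraries, together with H3F3B. H2AFY (ENSG00000113648, chromosome 5, 134669590 to 134735604, minus strand), for macroH2A1, had 180, 230.2 and 230.1 CPM in KO1-1, KO1-2 and KO2-1, against 192, 202 and 216 CPM in parental 1, 2 and 3. H2AFY2 (ENSG00000099284, chromosome 10, 71812552 to 71872036, plus strand), for macroH2A2, had 80.7, 75.5 and 74.0 CPM in KO1-1, KO1-2 and KO2-1, against 81.5, 64.3 and 78.3 CPM in parental 1, 2 and 3. The highest value was 1.28 times the lowest for H2AFY and 1.27 times for H2AFY2. The mean log2 differences were 0.06 (SE 0.20) for H2AFY and 0.04 (SE 0.19) for H2AFY2, each with a limma adjusted p of 1. Their log2 ratio was 1.15, 1.60 and 1.62 in KO1-1, KO1-2 and KO2-1, against 1.22, 1.64 and 1.45 in parental 1, 2 and 3, a mean difference of 0.02 (exact two-sided permutation p = 1, the same after adjustment).

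The linker histone gene H1FX (ENSG00000184897, chromosome 3, 129033615 to 129035120, minus strand), which encodes H1x, had 152, 52.1 and 103 CPM in KO1-1, KO1-2 and KO2-1, against 119, 33.0 and 80.9 CPM in parental 1, 2 and 3. Each knockout library was above its own partner, by 0.35, 0.64 and 0.35 on the log2 scale, although the values spanned a 4.60-fold range across libraries and the groups overlapped. The fit over all 6 libraries gave H1FX a log2 difference of 0.44 (SE 0.50, limma adjusted p = 1). The pair as a block brought the SE to 0.11 and the limma adjusted p to 0.556. In the dated pairs H1FX rose by 0.49 in KO1 (SE 0.12 with the block, limma adjusted p = 0.0233). Without the block the SE was 0.74 and the limma adjusted p 1. With the block, the adjusted p was 0.0395 after TMM scaling in limma and 0.0422 in edgeR's quasi-likelihood test on recovered reads. In the same blocked fit VIM, 1 of the 5 HEK293T markers, was also called higher in KO1 (0.56, SE 0.13, limma adjusted p = 0.0202). LUM, 1 of the 3 fibroblast markers, was called higher as well (0.85, SE 0.21, limma adjusted p = 0.0235), at only 0.547 to 2.28 CPM across libraries. COL3A1 was at 0.36 and COL1A1 at -0.44 in that fit, neither of them called. COL1A1 lay under the parental partner in every pair. The part of these markers in the H1FX result was not tested. The 61 genes around H1FX on chromosome 3 had median log2 changes of 0.00, 0.10 and 0.04 in the KO1-1, KO1-2 and KO2-1 pairs. H1FX-AS1, an antisense RNA that overlaps H1FX, had 7.54, 4.67 and 3.96 CPM in KO1-1, KO1-2 and KO2-1, against 6.49, 3.34 and 2.30 CPM in parental 1, 2 and 3. Whether counting used strand is not given in the sources used here, so reads of the antisense partners cannot be told apart.

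**Figure D3:**
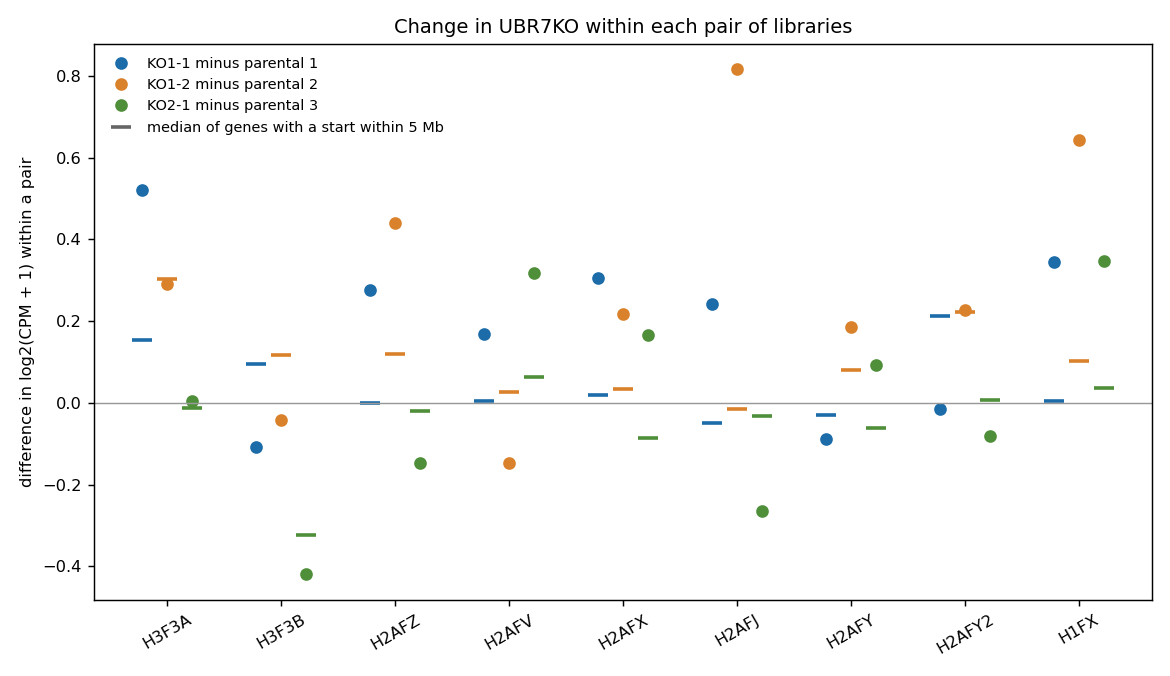
Difference in log2(CPM + 1), knockout minus its paired parental library, for each gene (points, 1 per pair) and the median of tested genes whose start lies within 5 Mb (dashes of the same colour). H1FX points lie between 0.35 and 0.64 with dashes at or under 0.10, while the lowest H3F3B point, -0.42 in the KO2-1 pair, sits beside a dash at -0.32.

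For 5 of the 9 variants, the means of the pairs spanned more than the largest change within a pair. The share of all tested genes for which this held was not taken, so the count is not read as a trait of the variants. A limma F test of the pair, added after the data were seen, called 4 of the 9 variants, H2AFZ, H2AFV, H2AFX and H1FX, where 49.2% of tested genes were called. The median tested gene was -0.16 (log2) in the pair of KO1-2 and parental 2 relative to that of KO1-1 and parental 1. In the undated pair it was -0.16 relative to the dated pairs. Mitochondrial ribosomal RNA held 15.8% and 17.1% of reads in KO1-1 and parental 1, and 21.1% and 20.7% in KO1-2 and parental 2. In KO2-1 and parental 3 it held 26.3% and 24.7%, and its part in the levels by pair was not tested. The pair means of H1FX spanned 1.67 on the log2 scale and its largest change within a pair was 0.64. H2AFZ spanned 1.30 against 0.44, and H2AFX 0.95 against 0.30. H1FX, H2AFZ, H2AFX, H3F3A, H2AFV and H2AFY2 were lowest in the pair of KO1-2 and parental 2, and H2AFJ and H3F3B in the undated pair. H2AFY was lowest in the pair of KO1-1 and parental 1. Date, culture and preparation cannot be told apart here.

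**Figure D4:**
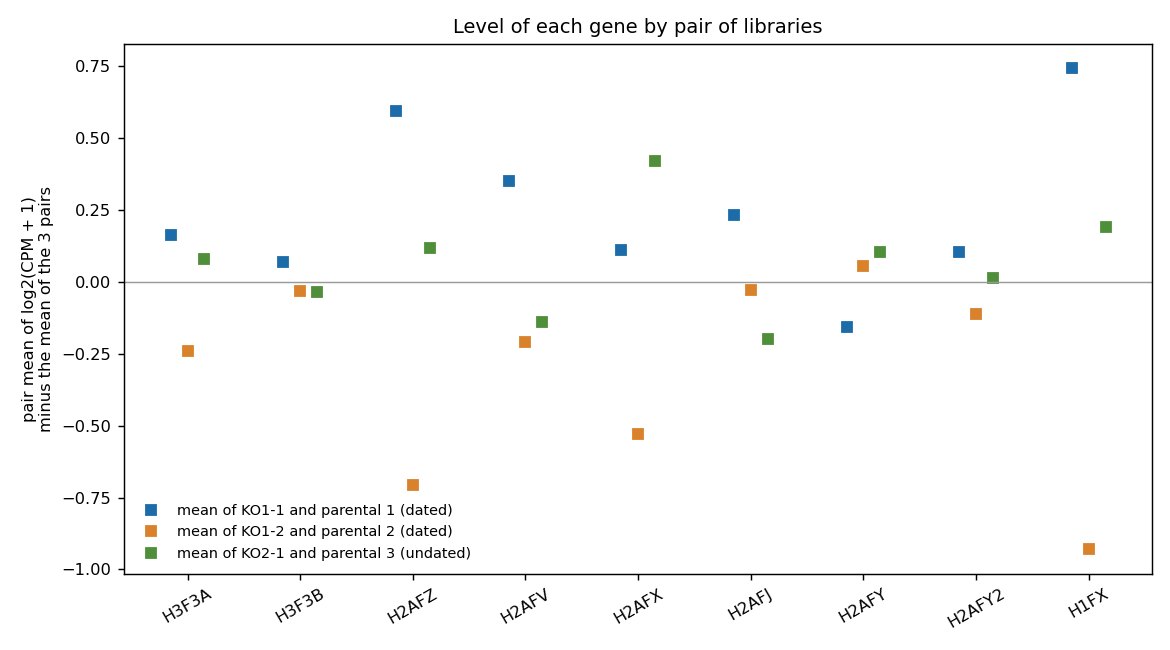
Mean log2(CPM + 1) of the 2 libraries of each pair, minus the mean of the 3 pairs, for each gene. H1FX and H2AFZ are lowest in the pair of KO1-2 and parental 2, and H3F3B spans the least, 0.11.

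The change in the KO2 pair was also set against that in the KO1 pairs. Of the 9 variants 0 were called different by limma with the pair as a block, where 5.03% of tested genes were called. Lowest in p among the variants were H2AFZ, with a difference of -0.51 (SE 0.21, limma adjusted p = 0.194), and H2AFJ, with -0.79 (SE 0.37, limma adjusted p = 0.259). H3F3A followed with -0.40 (SE 0.21, limma adjusted p = 0.342). For H1FX the difference was -0.15 (SE 0.21, limma adjusted p = 0.807), with changes of the same sign in both lines. In this comparison 3 of the 5 HEK293T markers were called, NEFL at -1.43, NEFM at -1.26 and VIM at -1.04, and 2 of the 3 fibroblast markers, COL3A1 at -2.69 and LUM at -1.87, and their part in the variants' values was not tested. The KO2 line has 1 library, and line and preparation cannot be told apart.

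Genes that handle these variants were read from lists chosen with earlier results of these data known. Of 8 genes of H3.3 deposition, among them the HIRA complex, DAXX and ATRX, 0 were called over all 6 libraries or in the dated pairs with the block. Their median log2 difference was 0.03. DEK, named because it had the most CPM, which are not scaled for length, had a UBR7KO mean of 439 ± 76.6 CPM and a parental mean of 428 ± 124 CPM (SD, n = 3 per group). Of 13 genes of H2A.Z exchange, including SRCAP, EP400 and INO80, 0 were called and the median was 0.01. ANP32E, a chaperone that removes H2A.Z, had a UBR7KO mean of 287 ± 53.8 CPM and a parental mean of 245 ± 54.8 CPM (SD, n = 3 per group). Of 11 genes listed for the control of H2A.X phosphorylation and its readers, 0 were called, with a median of 0.05. PRKDC, the catalytic subunit of DNA-PK, had a UBR7KO mean of 801 ± 193 CPM and a parental mean of 661 ± 132 CPM (SD, n = 3 per group). Of 3 macroH2A partners 0 were called. PARP1, whose product binds macroH2A1, had a UBR7KO mean of 1261 ± 367 CPM and a parental mean of 1170 ± 311 CPM (SD, n = 3 per group).

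Of 11 further variant genes 4 were in the table and 0 were called over all 6 libraries. HIST3H2BB, an H2B gene of the small histone cluster on chromosome 1, had 137, 65.9 and 162 CPM in KO1-1, KO1-2 and KO2-1, against 73.5, 49.9 and 158 CPM in parental 1, 2 and 3. It rose by 0.64 in KO1 in the dated pairs (SE 0.13 with the block, limma adjusted p = 0.00688), where 2.23% of tested genes were called higher. Without the block the SE was 0.40 and the limma adjusted p 1. Its start lies within 5 Mb of that of H3F3A, where the local medians were 0.15, 0.30 and -0.01 in the KO1-1, KO1-2 and KO2-1 pairs. HIST3H2A, its neighbour, had a log2 difference of 0.37 there (SE 0.13, limma adjusted p = 0.122). CENPA, the centromeric H3, had a UBR7KO mean of 20.0 ± 2.79 CPM and a parental mean of 19.5 ± 2.30 CPM (SD, n = 3 per group).

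Peaks of open chromatin were called near the starts of most variant genes in libraries of both labels, not all at a q of 0.05 or lower. The descriptions of the UBR7KO ATAC libraries carry the code of KO2-1, in which UBR7 RNA was at the parental level. An ATAC peak lay within 1 kb of the start, as the RNA table gives it, in all 4 libraries for 7 of the 9 genes, where 52.9% of tested genes had one. These were H3F3A, H3F3B, H2AFZ, H2AFV, H2AFX, H2AFY and H2AFY2. The authors called peaks in each library alone and obtained 15310 and 45920 peaks in UBR7KO 1 and 2, against 10507 and 38529 in parental 1 and 2. Of the best peaks per gene and library, 31 in all, 19 had a q of 0.05 or lower, that is a −log10 q of at least 1.30. H2AFX was the only variant to pass that in all 4, where 5.11% of tested genes did, with −log10 q of 2.33 and 3.34 in UBR7KO 1 and 2, and 2.72 and 4.05 in parental 1 and 2. These values come from separate lists of different lengths and were not compared between libraries.

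The other 2 genes had a peak in fewer libraries. H2AFJ had one in UBR7KO 2 (−log10 q 2.78) and in parental 2 (4.72), the libraries with more peaks. H1FX had one at the start in UBR7KO 2 alone (−log10 q 2.70), with further peaks 1074, 1112 and 1127 bases downstream in UBR7KO 1, UBR7KO 2 and parental 1 and none within 3 kb in parental 2. Peaks present in 1 library cannot be set against lists of other lengths as a change. For H3F3B the peaks lay 267 to 1461 bases inside the table's start, in a row that UNK overlaps on the other strand. The RefSeq start that the authors' list gives for H3F3B lies 6114 bases downstream of the table's start and also had a peak in all 4 libraries, with −log10 q of 1.19 and 2.14 in UBR7KO 1 and 2, and 1.65 and 1.42 in parental 1 and 2. In the authors' grouping of gene starts into 4 clusters, H3F3A, H2AFZ, H2AFV, H2AFX, H1FX and 1 start of H2AFY stood in cluster 4, which holds 46.7% of starts. H3F3B and H2AFY2 stood in cluster 2, which holds 18.1%. The other H2AFY start stood in cluster 3, and H2AFJ was not matched.

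**Figure D5:**
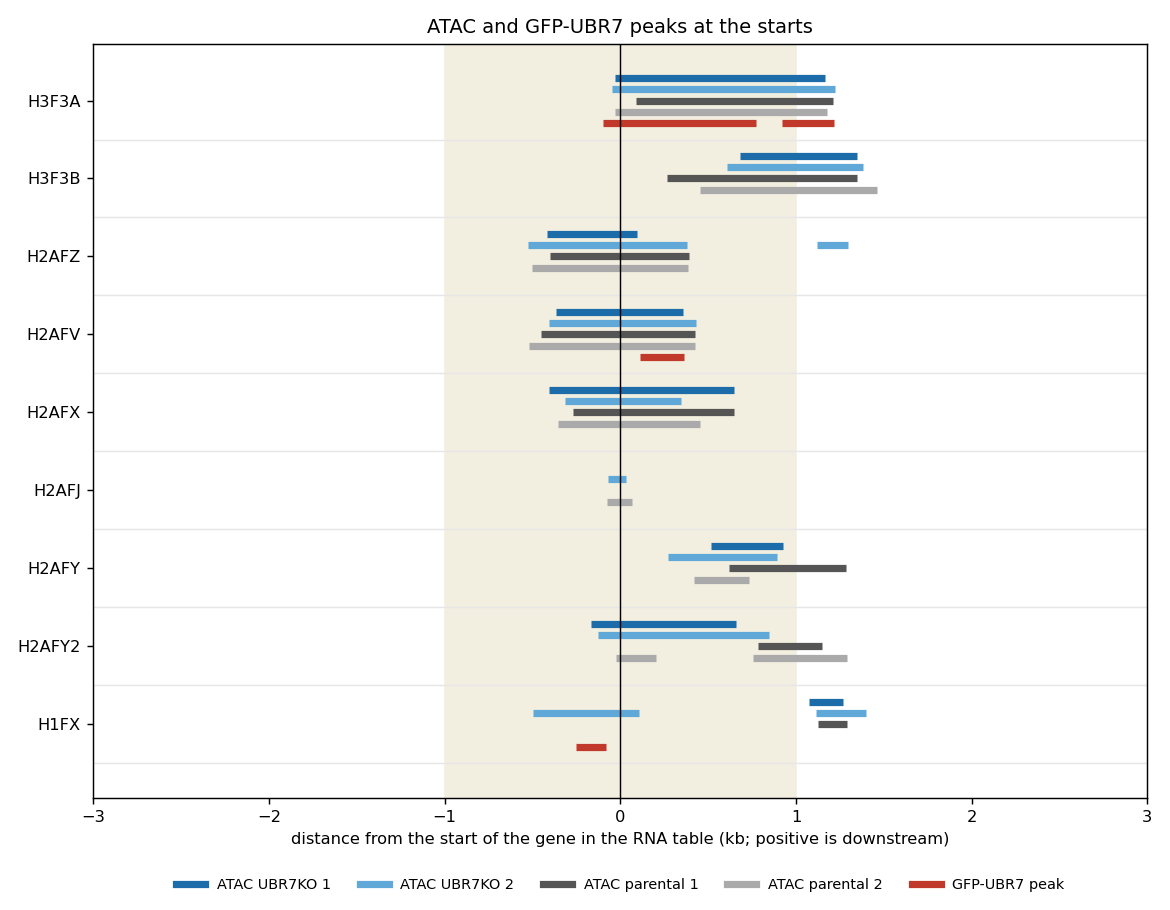
Extent of each ATAC peak in UBR7KO 1 and 2 and parental 1 and 2, and of each GFP-UBR7 peak, by distance from the start of the gene in kb, positive downstream and clipped at 3 kb; the shaded band is 1 kb on each side. ATAC peaks of all 4 libraries lie in the band for 7 genes, and GFP-UBR7 peaks for H3F3A, H2AFV and H1FX.

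GFP-UBR7 peaks lay within 1 kb of the start of 3 of the 9 genes, H3F3A, H2AFV and H1FX, where 24.9% of tested genes had one. H3F3A carried a peak from 99 bases before to 773 after the start, 348th by score of 5895 peaks, and a second from 923 to 1214 bases after it, 2498th. H2AFV had a peak from 114 to 360 bases after the start, 1080th by score. In H1FX a peak of 170 bases ended 81 bases before the start and stood 4825th, near the foot of the list. H3F3B, H2AFZ, H2AFX, H2AFJ, H2AFY and H2AFY2 had no peak within 3 kb of the start in the RNA table. The RefSeq start of H3F3B, 6114 bases downstream, had none within 1 kb either. The immunoprecipitation was made once, so these peaks have no replicate check.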

How the data were processed

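The genes and lists were chosen with earlier results of these data known. Tools listed in the submitters' processing notes, with no role for each, include HTSeq 0.6.1, TopHat2 2.1.0, MACS2, Bowtie2 2.3.1 and edgeR. The RNA table deposited by the authors gives CPM per library, that is reads of a gene scaled to a fixed library total and not for length, so CPM of different genes are not a comparison of their RNA levels. Whole reads were recovered from the step between values (100% whole within a relative tolerance of 1e-06). Parental 1 has no value under 9 reads in the table and the other libraries reach 0 or 1. The table's coordinates are of GRCh37 type. The authors' log2 changes and p-values in the deposited table were not used for results. The −log10 q of ATAC peaks and the score of GFP-UBR7 peaks are the authors', as deposited, and were ranked or filtered only within a list. The other scores in the deposited peak files were not used.

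limma 3.58.1 (R 4.3.3) was run, trend and robust options on, on log2(CPM + 1) for genes above 1 CPM in at least 3 libraries, with Benjamini-Hochberg adjustment over all genes and a threshold of 0.05. Comparisons were UBR7KO over parental, KO1 over parental in the dated pairs, and the KO2 pair minus the KO1 pairs. The same fits ran with the pair as a block, with other pseudocounts, filters and scalings, and with edgeR 4.0.16 and DESeq2 1.42.0 on recovered reads. The limma fit was tested on simulated data. The pairing came from date codes in the labels. Deviations from group means correlated over genes by 0.758 and 0.736 within dated pairs, 0.633 within the undated pair and -0.443 to -0.251 in all other pairings. Sister ratios used exact permutation. Python 3.11.15 with pandas 2.3.3, numpy 2.4.6, scipy 1.17.1 and matplotlib 3.10.9 did the rest. The variant genes, UBR7, called list members or else the one highest in CPM, the gene most alike in pattern to each variant, and genes within 5 Mb were to be named. No rows for pseudogene copies were found by symbol. How reads shared between near-identical copies were counted is not given in the sources used here. One gene of the list is not reported here. The 6 CUT&RUN samples were not analysed here.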

Additional observations from a re-analysis of the deposited data

Results flagged for a closer look

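The log2 change of UBR7 differed between the KO2 pair and the KO1 pairs, with the KO2 pair minus the KO1 pairs at 1.15 (SE 0.22, adjusted p = 0.00176 in limma), which drew attention because a test of the difference itself passed. UBR7 changed by -0.999 and -1.21 in the KO1-1 and KO1-2 pairs and by 0.05 in the KO2-1 pair. The KO2 pair is 1 undated pair, so its spread is taken from the KO1 pairs, and line and preparation cannot be told apart. None of the 9 histone variants met that test, although H2AFZ and H2AFJ were above the parental partner in both KO1 libraries and under it in KO2-1.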

How the results depend on the processing

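Over all 6 libraries, 0 of the 9 variants were called under every alternative run. In the dated pairs the count was 1 (H1FX) instead of 0 with the pair as a block, alone, with TMM scaling or in edgeR's quasi-likelihood test. The pairs come from date codes, so the blocked value stands beside the result, and the call of no other variant changed with it. H2AFV in the dated pairs turned from 0.01 to -0.0221 under TMM scaling, with or without the block. It turned to -0.0202 under RLE scaling in limma and to -0.0201 in edgeR with the block. In DESeq2 it stayed positive, at 0.0018. Leaving out KO1-1, parental 2 or parental 3 breaks a pair and turned directions. Over all 6 libraries the log2 change ranged from -0.23 to 0.48 for H2AFZ, -0.0743 to 0.28 for H2AFV, -0.0324 to 0.50 for H2AFX, -0.0594 to 0.11 for H2AFY2 and -0.0697 to 0.86 for H1FX. In the dated pairs, with each of the 4 libraries left out in turn, directions turned without KO1-1, KO1-2 or parental 2, and the change ranged from -0.33 to 1.05 for H2AFZ, -0.35 to 0.37 for H2AFV, -0.0809 to 0.60 for H2AFX, -0.13 to 0.22 for H2AFY, -0.0625 to 0.28 for H2AFY2 and -0.42 to 1.40 for H1FX. H3F3A and H2AFJ stayed positive and H3F3B negative throughout. The blocked H1FX call cannot be tested without a library, since no residual degree of freedom is left. The log2 ratio of H3F3A to H3F3B ranged from 0.37 to 0.60 with 1 library left out and was 0.46 as a mean within pairs (replicate block, exact sign-flip p = 0.25). The other ratios given changed sign, with ranges of -0.30 to 0.34 for H2AFZ over H2AFV and -0.0872 to 0.17 for H2AFY over H2AFY2. Genes with an ATAC peak in all 4 libraries numbered 4 within 250 bases, 3 at the start base and 0 at a −log10 q of at least 5, instead of 7. Genes with a GFP-UBR7 peak numbered 1 at the start base, and 2 among peaks scoring at or above the median, instead of 3. The share of all tested genes was not taken at these other settings, so these counts have no background beside them. Peak numbers per library limit the ATAC counts.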

Other observations

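The gene whose log2(CPM + 1) followed each variant most closely over the 6 libraries was named by a rule, as a description. For H2AFX it was MIF (r = 0.995), for H2AFZ NDUFB8 (0.999) and for H3F3B GGA3 (0.980), a gene on the same arm of chromosome 17. With 6 libraries that share 3 pairs and the best of 13696 genes taken, such values are always high. H1FX was matched by CTC-786C10.1 (r = 0.998), which reached only 1.44 CPM.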
